A study of Sus scrofa with 4 samples.

Results

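Gene models of 10000 bases or more were compared across RNA sequencing libraries of heart, liver, lung and kidney from pigs (Sus scrofa) of the Tibetan breed. Each tissue had 1 library, and the labels do not say from how many animals the tissues came, or their age or sex. The models were chosen by length alone: of 18367 models with at least 1 read in any library, 98 reached the minimum, which is 0.534% of the models and 4.38% of their summed length. Their lengths ran from 10047 to 80727 bases with a median of 12766.5, against a median of 1278 bases over all models. None of the 98 lay on the 3 scaffolds that were left out (scaffold46278, scaffold8242 and scaffold31207). Total reads on gene models were 8853076 in lung, 14062622 in heart, 5486480 in kidney and 4090775 in liver. A single library per tissue gives neither a replicate error nor a test, so every interval here is an exact 95% interval that covers counting error only.

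Coding sequences of this size specify giant proteins. In vertebrates these include sarcomere proteins that span the contractile unit of muscle, motor subunits, matrix and adhesion proteins, large lipid carriers and endocytic receptors, and very large signalling and ubiquitin-transfer proteins. Many of these are made in every cell, whereas others belong to a single cell type, such as a muscle cell or an epithelial cell. The deposited tables give model identifiers without gene names, so no such protein is assigned to a model here, and 0 of the 98 identifiers matched the reference tables of pig genes. The defining markers of each tissue could not be checked for the same reason.

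The giant models took 3.13% of lung reads (3.12 to 3.14), 6.92% of those in heart (6.90 to 6.93), 1.97% of those in kidney (1.96 to 1.98) and 1.65% of those in liver (1.64 to 1.66). Only in heart did this exceed their 4.38% share of summed model length. Models of at least 5000 and under 10000 bases, with 12.5% of summed length, showed the same pattern. They took 13.9% of heart reads, 11.3% of those in lung, 5.61% in kidney and 3.60% in liver. An excess in heart alone was thus not particular to the giant models. A few models carried most of the giant-model reads. In heart the longest model alone held 50.5% of them, with 491186 reads, and without it the heart share was 3.42%. In liver 1 model of 13737 bases held 63.6%, and the liver share without it was 0.600%. In kidney 1 model of 13947 bases held 38.7%, and in lung the leading model, of 17055 bases, held 22.0%. Lung was thus the library whose giant-model reads were spread most widely, since 8 models were needed to reach 50% of them, against 1 in heart, 1 in liver and 4 in kidney.

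By level, in RPKM (reads divided by model length in kilobases and by the library's reads on models), the median giant model stood at 12.0 in lung, 7.19 in heart, 4.73 in kidney and 1.14 in liver. The median of all models was 9.96 RPKM in lung, 5.49 in heart, 7.86 in kidney and 3.17 in liver. The giant models therefore stood above the median of all models in heart and lung and below it in liver and kidney. In lung this turned with the length limit: for models of 12000 bases or more the lung median was 6.70 RPKM, below that of all models. The next-longest class, 607 models of at least 5000 and under 10000 bases, had medians of 14.7 RPKM in lung, 7.70 in heart, 7.17 in kidney and 3.11 in liver. The quartiles of the giant models were wide, from 1.34 to 23.3 RPKM in lung, 0.196 to 18.4 in heart, 0.270 to 13.0 in kidney and 0.0866 to 6.32 in liver.

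**Figure D1:**
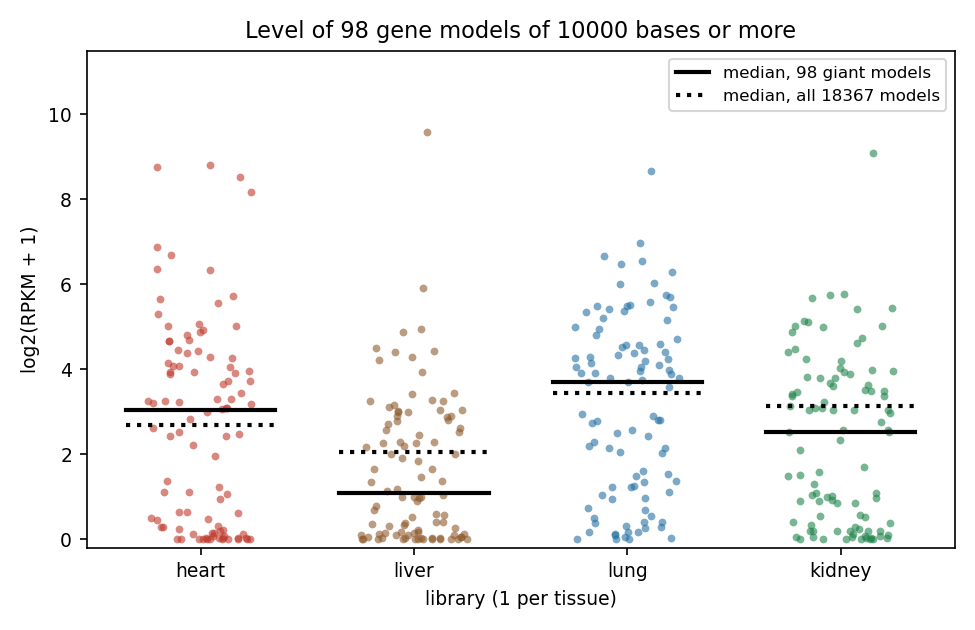
Each point is 1 of the 98 giant gene models, with its library on the x axis and log2(RPKM + 1) on the y axis. Solid lines are medians of the giant models and dotted lines medians of all 18367 models; the solid line lies above the dotted line in heart and lung and below it in liver and kidney.

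At 10000 bases, 1 RPKM corresponds to 88.5 reads in lung, 141 in heart, 54.9 in kidney and 40.9 in liver, so detection at 1 RPKM rested on many reads. At this level 76 giant models were detected in lung (77.6%, against 76.3% of all models), 63 in heart (64.3%, against 67.8%), 61 in kidney (62.2%, against 71.9%) and 51 in liver (52.0%, against 62.4%). At least 1 read in every library was found for 86 of the 98 models (87.8%, against 73.1% of all models and 87.1% of the next-longest class). A read marks a lower level in a longer model. In liver 1 read was worth 0.0191 RPKM at the median giant length and 0.191 at the median length of all models. In all libraries at 1 RPKM or more, however, there were 46 (46.9%, against 55.8% of all models and 61.1% of the next-longest class).

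The giant models more often passed 1 RPKM in exactly 1 library: 21 of 98 did so (21.4%, against 10.1% of all models and 10.4% of the next-longest class). Median-ratio scaling divides a library by its median ratio, over models, to the geometric mean of the libraries; after it the count was 18 (18.4%, against 10.2% of all models). Of the 21, 13 passed in lung (13.3%, against 5.29%), 5 in kidney (5.10%, against 2.17%), 3 in heart (3.06%, against 1.74%) and 0 in liver (against 0.931%). The lung models were low, between 1.07 and 14.7 RPKM with a median of 3.60. The 3 heart models stood at 14.3, 79.7 and 433 RPKM, and the kidney models ran from 1.04 to 546 RPKM with a median of 5.75. The converse pattern, 1 RPKM or more everywhere except in 1 library, was met by 9 giant models for liver (9.18%, against 6.08% of all models). The next-longest class had 9.72% for liver, so this was not particular to the giant models. For kidney 3 giant models met it (3.06%, against 0.724% of all models and 0.329% of the next-longest class). There were 0 each for heart (against 2.32% of all models) and lung (against 0.659%).

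Lung held the highest level of most giant models. The highest RPKM was in lung for 67 of the 98 (68.4%, against 44.1% of all models), in heart for 15 (15.3%, against 19%), in kidney for 12 (12.2%, against 29%) and in liver for 4 (4.08%, against 7.88%). In the next-longest class 66.4% were highest in lung, so the pattern was not particular to the longest models. Median-ratio scaling gave 52 highest in lung (53.1%, against 33.5% of all models), 25 in heart (25.5%, against 25.9%), 12 in liver (12.2%, against 20.8%) and 9 in kidney (9.18%, against 19.9%). The median ratio of lung to the second library was 1.97. For 11 of the 67 models the counting interval of this ratio included 1. That does not always mean a small lead, since some of them had few reads. A model of 10086 bases, with 12 reads in lung, had a ratio of 5.54 (0.820 to 237). Heart was that second library for 38 of the 67. After scaling, 52 of the 67 models highest in lung and 8 of the 12 highest in kidney kept that place. All 15 highest in heart and all 4 highest in liver also kept it. Scaling raised liver most and heart next, relative to the other libraries. A model highest in liver therefore could not lose its place, and one highest in heart could lose it only to liver.

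**Figure D2:**
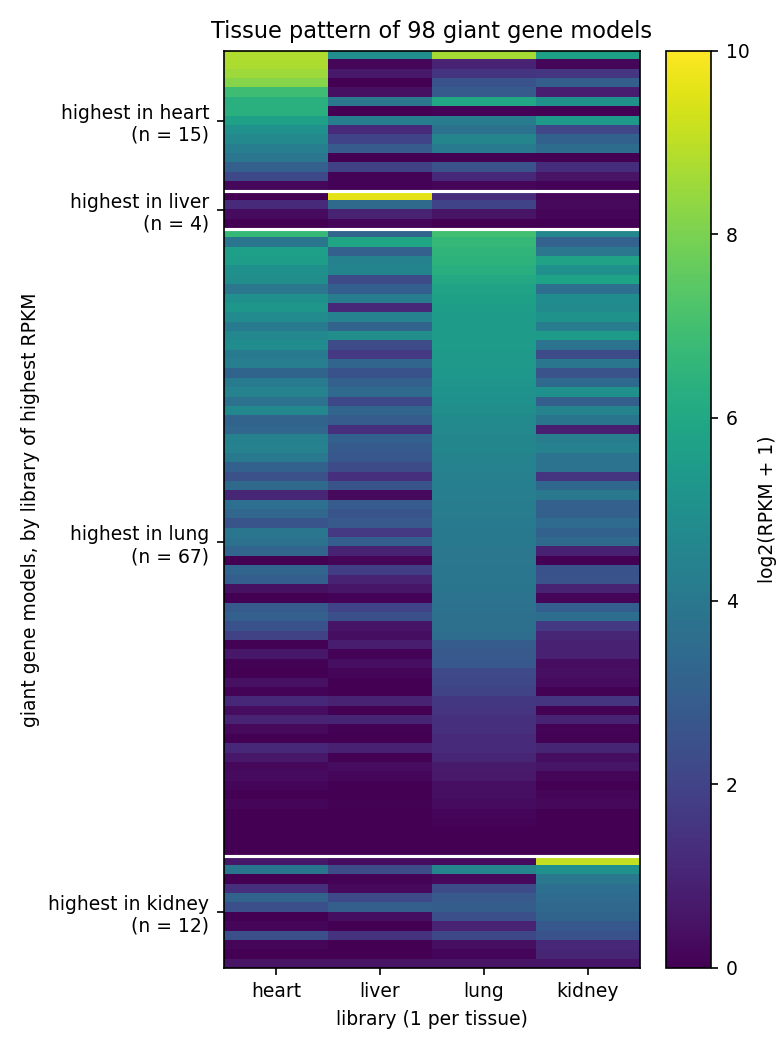
Rows are the 98 giant gene models, grouped by the library of highest RPKM and sorted by level within each group; columns are the libraries, and colour is log2(RPKM + 1). The 67 models highest in lung mostly have colour in the other libraries too, whereas the top liver model, at 764 RPKM, and the top kidney model, at 546 RPKM, are dark elsewhere. The top heart row, at 445 RPKM in heart, is also bright in lung, at 405 RPKM.

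**Figure D3:**
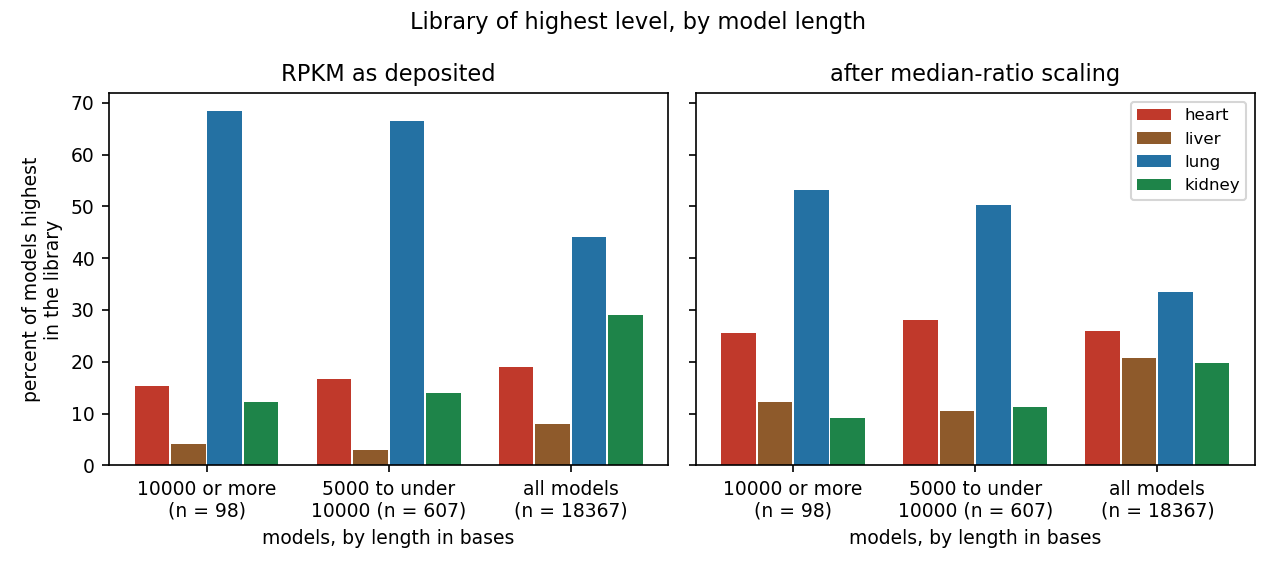
Bars give the percent of models whose highest RPKM lies in each library, on the y axis, for giant models, the next-longest class and all models. Lung leads in all 3 classes and under both scalings, with 68.4% of giant models as deposited and 53.1% after median-ratio scaling.

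Enrichment in a tissue was called at 10 RPKM or more there with an (RPKM + 1) at least 5 times that of every other library. Of the giant models, 12 met this for 1 tissue (12.2%, against 9.32% of all models). Heart had 6 (6.12%, against 2.08% of all models), lung 3 (3.06%, against 3.67%), kidney 2 (2.04%, against 2%) and liver 1 (1.02%, against 1.56%). Heart was the tissue in which the share of giant models lay above the background, while lung, kidney and liver lay near or below it. The next-longest class also lay above the background in heart, with 3.13% as deposited and 3.46% after median-ratio scaling. A raised heart share was thus not particular to the giant models, though theirs was higher. After median-ratio scaling heart had 6 (against 2.38%), lung 2 (against 1.95%), kidney 2 (against 1.57%) and liver 2 (against 2.28%). In each of the 12 called as deposited, the counting interval of the ratio to the next library lay wholly above 5. The rule itself puts this ratio above 5. The intervals therefore show only that counting error was small, and they give the calls no further support.

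The 6 heart-enriched giant models took 4.74% of all heart reads, and at between 14.3 and 433 RPKM they had a median of 204. The longest model in the files, evm.model.scaffold8852.6, of 80727 bases, stood at 433 RPKM in heart (431 to 434), against 0.972 in lung (0.901 to 1.05), 0.106 in liver (0.0738 to 0.147) and 0.138 in kidney (0.105 to 0.177). Its heart level was 445 times the lung level (413 to 480), and the other libraries held between 35 and 695 of its reads. The second, evm.model.scaffold19039.11, of 12234 bases, reached 371 RPKM in heart (368 to 374), against 1.98 in kidney (1.66 to 2.35), 1.82 in lung (1.57 to 2.09) and 0.619 in liver (0.421 to 0.879). Heart exceeded kidney 187-fold for this model (158 to 224).

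The other 4 heart-enriched models differed in how low they were elsewhere. A model of 14739 bases was at 290 RPKM in heart, against 7.23 in kidney and 4.68 in lung, and in liver it had 1 read. A model of 21723 bases was at 117 RPKM in heart and 6.04 in lung. Those of 10113 and 20730 bases, at 79.7 and 14.3 RPKM in heart, were each below 0.1 RPKM in every other library. All 6 kept the call after median-ratio scaling, and 3 of them were among the 9 models of 20000 bases or more.

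Of the remaining models highest in heart, several were nearly as high in lung. The model evm.model.scaffold45520.22, of 17055 bases, had the highest minimum level of all giant models, at 445 RPKM in heart (442 to 448), 405 in lung (401 to 408), 28.5 in liver (27.3 to 29.8) and 50.0 in kidney (48.6 to 51.4). It met the rule for enrichment in heart and lung together, in which the lower of the pair is at 10 RPKM or more and at least 5 times the higher of the other libraries on the RPKM + 1 scale (1 of 98, against 0.604% of all models). Heart exceeded lung for this model 1.10-fold as deposited (1.09 to 1.11), and 292.83 RPKM in lung stood against 480 in heart after median-ratio scaling.

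No giant model was depleted in heart, meaning 10 RPKM or more in every other library with even the lowest at least 5 times the heart value on the RPKM + 1 scale (0 of 98, against 0.588% of all models). The nearest was evm.model.scaffold25573.5, of 10047 bases, with 24.4 RPKM in heart (23.6 to 25.3), against 29.8 in liver (28.2 to 31.5), 42.3 in kidney (40.6 to 44.1) and 43.7 in lung (42.3 to 45.1). As deposited it was the most even of the giant models detected in all libraries, with a range of 1.76-fold in RPKM + 1. Next came evm.model.scaffold6504.5, which at 27.1 RPKM in heart and 20.6 in liver was not lowest in heart.

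Liver had a single enriched giant model, and it was the highest giant model of any library. The model evm.model.scaffold17894.4, of 13737 bases, was at 764 RPKM in liver (757 to 772), against 1.40 in lung (1.20 to 1.62), 0.0104 in heart (0.00125 to 0.0374) and 0.0929 in kidney (0.0373 to 0.191). Liver exceeded lung 547-fold (470 to 639), and heart held 2 of its reads. It took 1.05% of all liver reads. A model of 10073 bases, at 9.93 RPKM in liver and 3.07 in lung, met neither the minimum level nor the 5-fold limit as deposited, with liver 3.23-fold above lung (2.77 to 3.78). After median-ratio scaling it met both, at 16.2 RPKM in liver and 2.22 in lung. Of the other models highest in liver, one of 18420 bases had 10 reads in liver and 0 in each other library, which puts it at 0.133 RPKM in liver.

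Liver was the lowest library for most giant models that were detected everywhere. Among the 46 that reached 1 RPKM in all libraries, liver was lowest in 40 (87.0%, against 57.1% of the 10247 such models in the whole series). After median-ratio scaling it was lowest in 19 (41.3%, against 24.2%), and kidney then was lowest in 20 (43.5%, against 20.5%). In the next-longest class liver was lowest in 82.7% of 371 such models as deposited. After scaling, liver was lowest in 37.2% of that class and kidney in 36.7%. The pattern was thus not particular to the giant models. Depletion in liver was met by 2 giant models (2.04%, against 1.12% of all models). These were evm.model.scaffold36431.1, which had 1.20 RPKM in liver (0.927 to 1.54) and at least 25.6 elsewhere, lowest in kidney, and evm.model.scaffold24576.14, which had 3.91 RPKM in liver (3.33 to 4.56) and at least 29.5 elsewhere, lowest in heart. For the first, kidney exceeded liver 21.2-fold (16.6 to 27.7), and 10.3-fold after median-ratio scaling, under which only this model kept the call (1.02%, against 0.294% of all models).

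The 3 lung-enriched models were of modest level, between 13.0 and 14.7 RPKM, and together took 0.0632% of lung reads. The highest, evm.model.scaffold1044.10, of 22449 bases, was at 14.7 RPKM in lung (14.2 to 15.2), against 0.120 in liver (0.0598 to 0.214), 0.00950 in heart (0.00196 to 0.0278) and 0 reads in kidney, where 3 counts would be 0.0244 RPKM. Lung exceeded liver 123-fold for this model (68.4 to 246). The next, evm.model.scaffold5023.6, of 10881 bases, was at 13.9 RPKM in lung (13.1 to 14.6), against 0.972 in kidney (0.738 to 1.26), 0.517 in liver (0.328 to 0.775) and 0.379 in heart (0.288 to 0.490). These 2 kept the call after median-ratio scaling, and the third, of 11668 bases, did not. Over all levels, some models had a counting interval of the ratio to the second library wholly above 2. These were 24 of the 67 models highest in lung and 8 of the 15 highest in heart. In kidney they were 6 of the 12, and in liver 3 of the 4. The same shares over all models were not computed, so these counts do not set giant models apart from others.

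No giant model was depleted in lung (0 of 98, against 0.376% of all models). The model nearest to it, evm.model.scaffold44924.1, of 23235 bases, was at 17.5 RPKM in lung (16.9 to 18.1), against 18.6 in liver (17.7 to 19.5), 51.8 in heart (51.0 to 52.6) and 41.8 in kidney (40.7 to 42.9). Liver stood only 1.06-fold above lung (1.00 to 1.13), and 2.39-fold after median-ratio scaling.

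Kidney had 2 enriched giant models, very different in level. The model evm.model.scaffold23349.9, of 13947 bases, was at 546 RPKM in kidney (541 to 551), against 0.551 in heart (0.452 to 0.665), 0.245 in liver (0.134 to 0.412) and 0.219 in lung (0.144 to 0.318). Kidney exceeded heart 991-fold (821 to 1209). The second, evm.model.scaffold22327.2, of 10386 bases, was at 14.9 RPKM in kidney (13.9 to 16.0), against 0.196 in lung (0.116 to 0.309), 0.0706 in liver (0.0146 to 0.206) and 0.0205 in heart (0.00424 to 0.0600). Both kept the call after median-ratio scaling, and together they took 0.777% of kidney reads. The rule for lung and kidney together was met by 1 model, of 11966 bases, at 18.6 RPKM in lung and 15.2 in kidney, against 1.09 in heart and 0.204 in liver (against 0.648% of all models).

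No giant model was depleted in kidney (0 of 98, against 0.0762% of all models). The nearest, evm.model.scaffold47170.7, of 13635 bases, was at 7.83 RPKM in kidney (7.21 to 8.49), against 14.4 in heart (13.9 to 15.0), 59.3 in liver (57.3 to 61.3) and 100.3 in lung (98.5 to 102). Heart exceeded kidney 1.84-fold for this model (1.68 to 2.01). Next by the same ratio was evm.model.scaffold540.1, which at 31.6 RPKM in kidney, 31.5 in heart and 21.8 in liver was not lowest in kidney.

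Liver and kidney shared no giant model under the rule for a pair of tissues (0 of 98, against 1.26% of all models). In the whole series this was the pair with the most shared models, 231, and none of the 607 models of the next-longest class met the rule either.

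Among the 46 giant models detected in all libraries, the most frequent order of deposited levels was lung, heart, kidney, liver, found in 22. The order lung, kidney, heart, liver followed, in 10. These orders were not counted over all models, so they do not set giant models apart from others. In the 46 giant models the (RPKM + 1) of the highest library was between 1.76 and 21.6 times that of the lowest. The median was 3.95, against 3.72 over all models detected everywhere. The ratio was under 3 in 13 of the 46 (28.3%, against 37.1% of all such models), and in 26 after median-ratio scaling (56.5%, against 50.6%). At 10 RPKM or more in every library there were 8 giant models (8.16%, against 22.1% of all models and 14.7% of the next-longest class). These 8 were not all even, since the model of 17055 bases among them was at 445 RPKM in heart and 28.5 in liver.

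Between pairs of tissues, the 84 giant models that reached 1 RPKM in at least 1 library were compared on the log2(RPKM + 1) scale, on which changes of low models are understated. The median difference of lung minus liver was 1.83, against 1.15 over all 15357 models and 1.72 over 541 models of the next-longest class. For lung minus kidney it was 0.93, against 0.19 over all models, and for heart minus liver 0.97, against 0.46. Lung minus heart gave 0.76, against 0.66, and kidney minus liver 0.70, against 0.87. Kidney minus heart was -0.18 among the giant models and 0.31 over all models, so here the median giant model and the median model lay on opposite sides of 0.

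Scaling moved these medians, and most gaps between the giant models and all models remained. After median-ratio scaling lung minus liver was 0.96, against 0.24 over all models, lung minus kidney 0.80, against 0.08, and heart minus liver 0.50, against 0.08. Kidney minus heart was -0.46, against 0. Lung minus heart was 0.22, against 0.18, and kidney minus liver 0.05, against 0.06, so in these pairs the giant models lay close to the median of all models. The next-longest class lay within 0.2 of the giant models in every pair under both scalings.

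**Figure D4:**
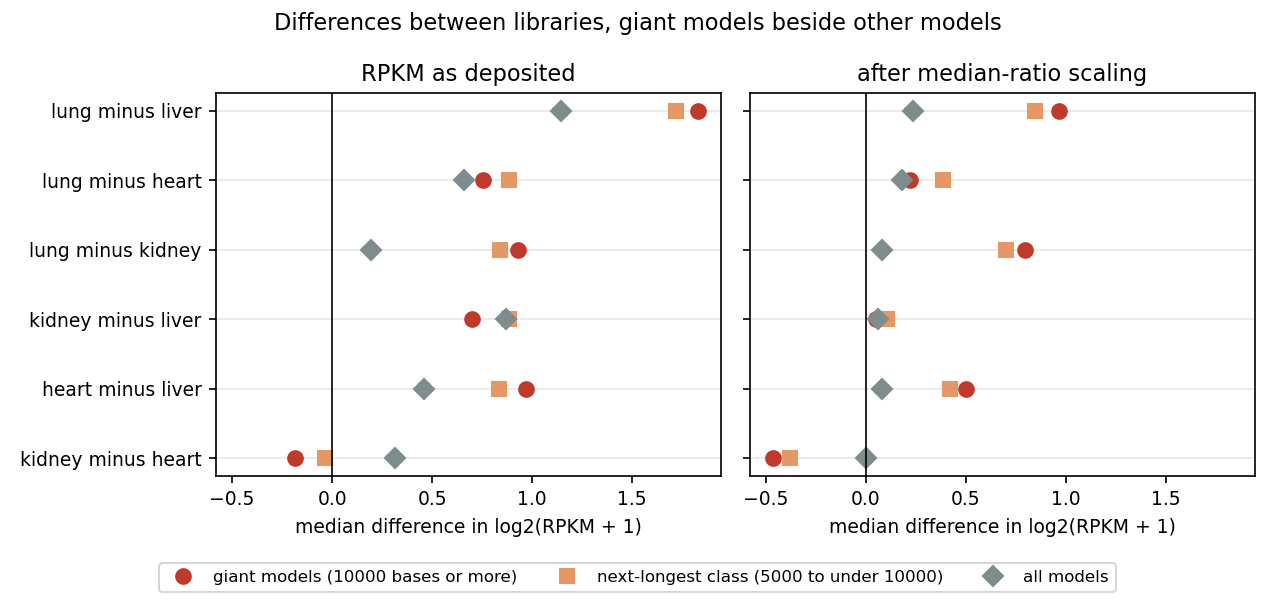
Each row is a pair of libraries, and the x axis is the median difference in log2(RPKM + 1), first library minus second. Circles are giant models, squares the next-longest class and diamonds all models; circles and squares lie close together, and both lie away from the diamonds for lung minus liver, lung minus kidney, heart minus liver and kidney minus heart.

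Counts of models with at least a 4-fold difference in RPKM + 1 followed the medians. Lung exceeded liver in 41 of the 84 (48.8%, against 27.3% of all models) and liver exceeded lung in 1 (against 5.8%). Heart exceeded liver in 20 (23.8%, against 14.1%) and liver exceeded heart in 2 (against 7.03%). Heart exceeded kidney in 11 (13.1%, against 6.27%) and kidney exceeded heart in 6 (7.14%, against 12.5%). The split for heart and kidney was 15 and 5 after median-ratio scaling, against 7.92% and 9.54% of all models. Lung exceeded kidney in 15 (17.9%, against 12.7%) and kidney exceeded lung in 2 (against 9.15%). In the next-longest class, of 541 models, lung exceeded liver in 40.3%, heart exceeded liver in 19.6% and lung exceeded kidney in 16.6%. The excesses over all models in these directions were thus not particular to the giant models. For heart over kidney that class had 7.76%, nearer to the share of all models, and for kidney over heart 6.28%. The counts for the 2 remaining pairs were nearer to the background. Lung exceeded heart in 11 (13.1%, against 16%) and heart exceeded lung in 6 (7.14%, against 6.13%), a split of 8 and 7 after median-ratio scaling, against 10.1% and 8.39% of all models. Kidney exceeded liver in 10 (11.9%, against 14.4%) and liver exceeded kidney in 3 (3.57%, against 3.4%). In the other pairs median-ratio scaling gave 19 for lung over liver (against 14%) and 2 for liver over lung (against 10.2%), and 16 for heart over liver (against 10.5%) and 3 for liver over heart (against 9.63%). It gave 14 for lung over kidney (against 10.8%) and 2 for kidney over lung (against 9.39%), and 9 for kidney over liver (against 7.33%) and 3 for liver over kidney (against 5.59%).

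Within the giant models, level showed little relation to length. Across the 98 models, which share the same 4 libraries and are not replicates, the Spearman correlation of length with RPKM was 0.05 in lung, 0.13 in heart, -0.04 in kidney and 0.02 in liver. The lung median was 13.9 RPKM for the 37 models under 12000 bases, 5.84 for the 41 of 12000 to under 15000 bases and 13.4 for the 20 of 15000 bases or more. In heart the medians of these classes were 4.79, 6.14 and 8.66 RPKM. Heart held the highest level in 2 of the 37, 8 of the 41 and 5 of the 20 models. At the length limit itself, the models of 10047 and 10056 bases, just inside, stood at 43.7 and 14.2 RPKM in lung, and those of 9966 and 9954 bases, just outside, at 6.85 and 34.3.

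**Figure D5:**
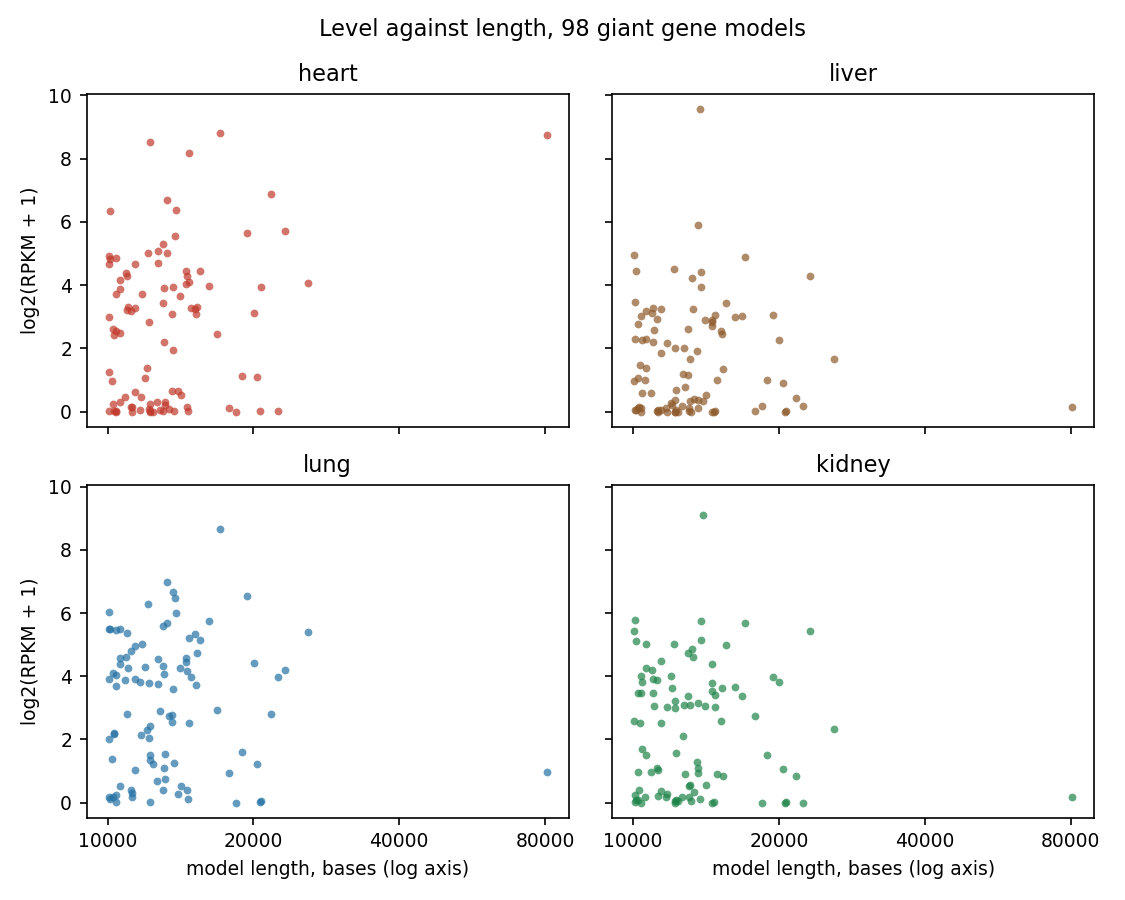
Each panel is a library, with model length on a log axis against log2(RPKM + 1) for the 98 giant models. Low and high levels both occur among the models of up to 25947 bases, beyond which only the model of 80727 bases lies. That model is high in heart (433 RPKM) and under 1 RPKM in the other libraries.

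The models of 20000 bases or more differed widely in level. After the longest, evm.model.scaffold17152.12, of 25947 bases, was at 41.6 RPKM in lung (40.7 to 42.4), 15.8 in heart (15.4 to 16.3), 4.04 in kidney (3.72 to 4.38) and 2.16 in liver (1.89 to 2.46). Of these 9 models, as deposited, 4 were highest in heart, 5 in lung and 0 in liver or kidney. One of them, of 20376 bases, was low and even, at 1.33 RPKM in lung, 1.15 in heart, 1.07 in kidney and 0.876 in liver. Its ratio of lung to heart had an interval that included 1 (0.977 to 1.37), and after median-ratio scaling it was highest in liver. Another, of 20614 bases, had 1 read in heart, 2 in lung and 0 in liver and kidney.

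That model was one of 14 giant models below 1 RPKM in every library (14.3%, against 16.4% of all models). These 14 had between 1 and 204 reads over the 4 libraries together, with a median of 45.5, and 10 of them were highest in lung. The same share was not computed over all models this low, so that count does not set giant models apart from others. In 3 of the 14 fewer than 5 reads were found in all libraries together, which is too few to give a tissue pattern.

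By position, the 98 giant models lay on 93 scaffolds, and 5 scaffolds held a pair of them. These pairs did not share their levels as a rule. On scaffold540 one model was at 76.8 RPKM in lung and the other at 3.14, and on scaffold46174 the pair was at 39.7 and 0.663 RPKM in lung. On scaffold10588 both were below 0.1 RPKM in every library. Models with the next lower or higher number on the same scaffold were highest in lung in 39 of 90 cases beside a giant model highest in lung (43.3%, against 50.8% over all models highest in lung). Beside the 6 heart-enriched giant models, 2 of 7 such neighbours were heart-enriched too (28.6%, against 7.29% beside all heart-enriched models and 10.3% beside those of the next-longest class). One was of 4566 bases beside the longest model, at 57.6 RPKM in heart, and the other of 1563 bases beside the model of 10113 bases, at 118 RPKM. Whether such neighbours are separate genes or pieces of one gene was not tested.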

How the data were processed

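Each library's table, as deposited by the authors, holds a read count, an RPKM, a length and the library total per gene model. The deposited counts are whole reads on a model, and the deposited RPKM values are scaled to model length and library total, per the file headers; recomputed RPKM matched within a relative tolerance of 1e-12. The submitters' processing notes name TopHat, without a version. For the counter, its use of strand and of reads with several matches, the build and the annotation, the answer is not given in the sources used here, so models with near-identical copies may share reads. Of the 98 lengths, 82.7% were multiples of 3, against 89.5% over all models, so most but not all may be coding lengths.

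Tables were joined on the identifier, and a missing model was taken as 0 reads. Pairs were compared with a pseudocount of 1 RPKM. Median-ratio factors, from 10247 models above 1 RPKM in every library, were 1.38 for lung, 0.927 for heart, 1.27 for kidney and 0.614 for liver. Intervals are exact (Poisson for a level, Clopper-Pearson for a share or a ratio), the floor is 3 counts per library, and both cover counting error only. One read at the median giant length was worth 0.00885 RPKM in lung, 0.00557 in heart, 0.0143 in kidney and 0.0191 in liver.

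Per tissue, the models named are up to 2 enriched ones of highest RPKM and the 2 nearest to depletion, by the ratio of the lowest other library to the tissue on the RPKM + 1 scale, with each other library at 10 RPKM or more. The 2 longest and the 2 of highest minimum were added. The models, lists and rules were chosen with earlier results of these data known, and models given by length alone were picked with their values seen. The rule for enrichment in a single tissue was tested on simulated counts, and the scaling factors on known multiples of a single profile. The other rules were not tested on simulated data. Software was scipy 1.17.1, numpy 2.4.6, matplotlib 3.10.9 and pandas 2.3.3 under Python 3.11.15.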

Additional observations from a re-analysis of the deposited data

How the results depend on the processing

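No paired analysis was possible because there was 1 library for each tissue, nor could a replicate be left out. Including the 3 left-out scaffolds changed no read share, since they hold no model of 10000 bases or more. Thinning to 4090775 reads, dropping the 1 RPKM filter, a 10-fold minimum and the use of models listed in all 4 files moved no count by over 1.5 times. Depth limits low values most in liver.

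Counting any read gave 88 giant models detected in liver (51 as reported) and 92 in kidney (61). In liver 10.2% of giant models had no read, against 21.1% of all models and 9.88% of the next-longest class. In kidney 6.12% had none, against 13.1% and 4.61%. Shares over all models were not computed for the 3-fold and 2-fold minimums or the pseudocount of 0.1. Counts under those settings therefore do not set giant models apart from others. Median-ratio scaling gave 2 enriched in liver (1), 25 highest in heart (15) and 12 highest in liver (4), and a 3-fold minimum gave 7 enriched in lung (3). For 4-fold differences, median-ratio scaling gave 19 for lung over liver (41) and 2 for liver over lung (1). A pseudocount of 0.1 gave 19 for lung over heart (11), 29 for lung over kidney (15), 4 for kidney over lung (2) and 4 for liver over heart (2). A 2-fold minimum gave 62 for lung over liver, 2 for liver over lung, 32 for lung over heart, 40 for lung over kidney, 5 for kidney over lung, 31 for kidney over liver (10), 39 for heart over liver (20) and 18 for heart over kidney (11).

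Median log2 differences under median-ratio scaling, a pseudocount of 0.1 and no filter were, in this order, 0.96, 2.39 and 1.68 for lung minus liver, 0.22, 0.94 and 0.62 for lung minus heart, and 0.80, 1.26 and 0.70 for lung minus kidney. They were 0.050, 1.03 and 0.57 for kidney minus liver and 0.50, 1.18 and 0.75 for heart minus liver. Kidney minus heart was -0.46 under median-ratio scaling and -0.078 with no filter. No median changed sign under any of the 3 alternatives.

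Median levels after median-ratio scaling were 8.71 RPKM in lung, 7.76 in heart, 3.73 in kidney and 1.86 in liver. A length minimum of 8000 bases gave 1.91 in liver, 13.3 in lung and 5.92 in kidney, and one of 12000 bases gave 1.00 in liver, 6.70 in lung (below the 9.96 of all models) and 4.04 in kidney. Of 15 log2 ratios of named models, 2 stayed within their counting intervals under median-ratio scaling and 2 reversed: liver over heart for evm.model.scaffold6504.5 was 0.20 (from -0.40), and liver over kidney for evm.model.scaffold540.1 was 0.51 (from -0.54). Neither had been called lower. The cause was not tested for any of these changes.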
